A study of Mus musculus with 6 samples.

Results

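The 36 genes described here encode the machinery of the cell division cycle, from the cyclins and kinases that commit a cell to divide, through the enzymes that copy its DNA, to the proteins that separate the copies in mitosis. They were the rows of the deposited table whose symbol is on a list of 36 names, and all 36 were found among 22173 symbols. By role they were 9 genes of origin licensing and the replicative helicase, 3 of the replication fork, 4 of nucleotide supply, 7 of the G1 and S phase control (the D and E cyclins, 2 kinases and E2F1) and 13 of mitosis. The first 3 groups are called the 16 replication genes.

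The study asked how DDK, a limonoid per the series title, acts in metabolic dysfunction-associated steatohepatitis, a fatty liver disease with inflammation and scarring. Livers came from wild-type mice (Mus musculus), all fed the HFHC diet for 16 weeks from 6 weeks of age, the diet and the compound being named in the labels only by these abbreviations. DDK was given to 3 mice and vehicle to 3 mice over the last 4 weeks of the diet. The sex, strain and cage of the mice are not given in the sources used here, and every comparison is DDK against vehicle under this diet.

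In an adult liver almost all hepatocytes rest outside the cycle, and few cells of any kind divide at a time. The MCM proteins form the helicase ring that is loaded on DNA in G1 by CDC6 and CDT1 and opened in S phase. E2F factors are known to drive genes of DNA replication, while many mitosis genes are held silent by the DREAM complex and switched on late in the cycle through promoter elements called CHR and CCAAT boxes. In whole liver RNA, fewer dividing cells and less RNA per cell cannot be told apart.

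Several named genes stood far lower in DDK livers than in vehicle livers, but the 36 genes did not move as one. The helicase genes Mcm2 to Mcm6 were lower by 2.18-fold (Mcm3) to 4.57-fold (Mcm5) in mean FPKM (fragments divided by the gene's length and by the library's total). The mitosis genes Ccnb1, Plk1, Top2a and Tpx2 were lower by 12-fold (Tpx2) to 34.3-fold (Ccnb1). Tk1 and Ccnd3 were higher, by 2.21-fold and 1.63-fold, and Gins2, Cdt1, Tyms, Ccnd1 and Birc5 had overlapping values with group means at most 1.2-fold apart.

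Promoter sequences are shown for genes on both sides of this split, to let a reader see which known elements they carry. RefSeq promoter windows (GRCm38.p6) were available for 29 of the 36 genes, and the 250 bases before the start were searched on both strands for 3 elements. These were an E2F core (TTCGCGC or TTGGCGC), CHR (TTTGAA or TTCGAA) and a CCAAT box (CCAAT). Below, capitals mark the match, each line reads 5′ to 3′ on the gene's strand and every match shown is to the letters as written.
Ccnb1: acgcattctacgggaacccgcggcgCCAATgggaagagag
Plk1: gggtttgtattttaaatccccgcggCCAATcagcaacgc
Top2a: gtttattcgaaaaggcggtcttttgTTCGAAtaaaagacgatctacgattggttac
Ccnb2: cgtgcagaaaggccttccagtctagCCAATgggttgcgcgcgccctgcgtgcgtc
Cdk1: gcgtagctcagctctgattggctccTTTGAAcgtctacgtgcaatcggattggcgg
Mcm5: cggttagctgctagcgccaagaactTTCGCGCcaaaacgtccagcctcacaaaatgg
Mcm6: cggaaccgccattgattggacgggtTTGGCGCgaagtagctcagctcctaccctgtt

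Those stretches lie at chr13:100786571-100786610 (Ccnb1, minus strand), chr7:122159396-122159434 (Plk1, plus strand), chr11:99024279-99024334 (Top2a, minus), chr9:70421579-70421633 (Ccnb2, minus), chr10:69352953-69353008 (Cdk1, minus), chr8:75109332-75109388 (Mcm5, plus) and chr1:128359720-128359776 (Mcm6, minus). A CCAAT box was present in 9 of the 10 mitosis genes with a window, in 9 of 14 replication genes and in 37.5% of all 27025 genes with a window. CHR letters were present in 5 of the 10 mitosis genes, in 2 of the 14 replication genes and in 19.6% of all genes. The E2F core was in 3 of 10 mitosis and 3 of 14 replication genes, and in 3.66% of all genes. Ccnb2 and Cdk1, whose DDK and vehicle values overlapped, carried both CHR and CCAAT letters, as did Top2a, whose values did not overlap. A match describes these letters and not bound protein.

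The libraries held 26576291 to 30237490 fragments in DDK and 33963898 to 36105315 in vehicle, totals recovered from the FPKM values, in which every value was a whole number of fragments within 0.01 of a fragment. At these totals 3 fragments of a 2000 bp gene correspond to an FPKM of 0.0415 to 0.0564, and intervals from fragments cover counting error only. The labels do not say whether the mice shared cages, so p-values measure the spread between these livers. Scaling by median ratios gave factors between 0.867 and 0.934 for DDK and between 1.02 and 1.19 for vehicle, so the deposited scaling sets all DDK values lower than that scaling would. Over the 10681 genes tested, the middle log2 fold change was -0.23 as deposited and -0.01 after median-ratio scaling, and each gene's change is to be read against that shift.

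By limma on log2(FPKM + 1) with Benjamini-Hochberg adjustment over all genes, 10 of the 25 genes that reached an FPKM of 0.5 in 3 livers were lower in DDK and 2 were higher. Of all genes tested, 30.3% were lower and 10.2% higher. After median-ratio scaling the counts were 6 lower and 2 higher, beside 16.2% and 18% of all genes. Under quantile normalization 4 were lower and 2 higher, 16% and 8% of the 25, beside 16.4% and 17.7% of all genes. Of the 25, 8 reached the minimum in fewer than 3 DDK livers. Mcm5 and Aurka reached it in none, so these 2 genes entered through the vehicle livers alone. The 11 genes left out had 9 mitosis genes among them.

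Limma's voom on the whole fragments, with genes of at least 30 fragments over the 6 libraries (a setting chosen after seeing the data), took in all 36. Cdc6, Ccnb1, Top2a, Bub1, Aurkb, Plk1 and Tpx2 had fewer than 30 fragments over the DDK livers together and met this minimum through the vehicle livers. It put 16 genes lower and 2 higher, against 24.2% lower and 7.38% higher of all 13697 genes. After median-ratio scaling 7 were lower and 2 higher, beside 12% and 14.2% of all genes. The median log2 fold change was -0.85 over the 36 genes and -0.34 over all genes as deposited, and -0.55 and -0.03 after median-ratio scaling. The count of lower genes was 8, 5 and 7 without DDK replicates 1, 2 and 3, and 18, 9 and 14 without vehicle replicates 1, 2 and 3. The share of all genes lower was not counted in these fits with a library left out. No overlap between groups, with DDK below, was seen for 21 of the 36 genes and for 35.7% of all genes with at least 30 fragments. DDK above, with no overlap, was seen for 2 of the 36 and for 12.1% of all.

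**Figure D1:**
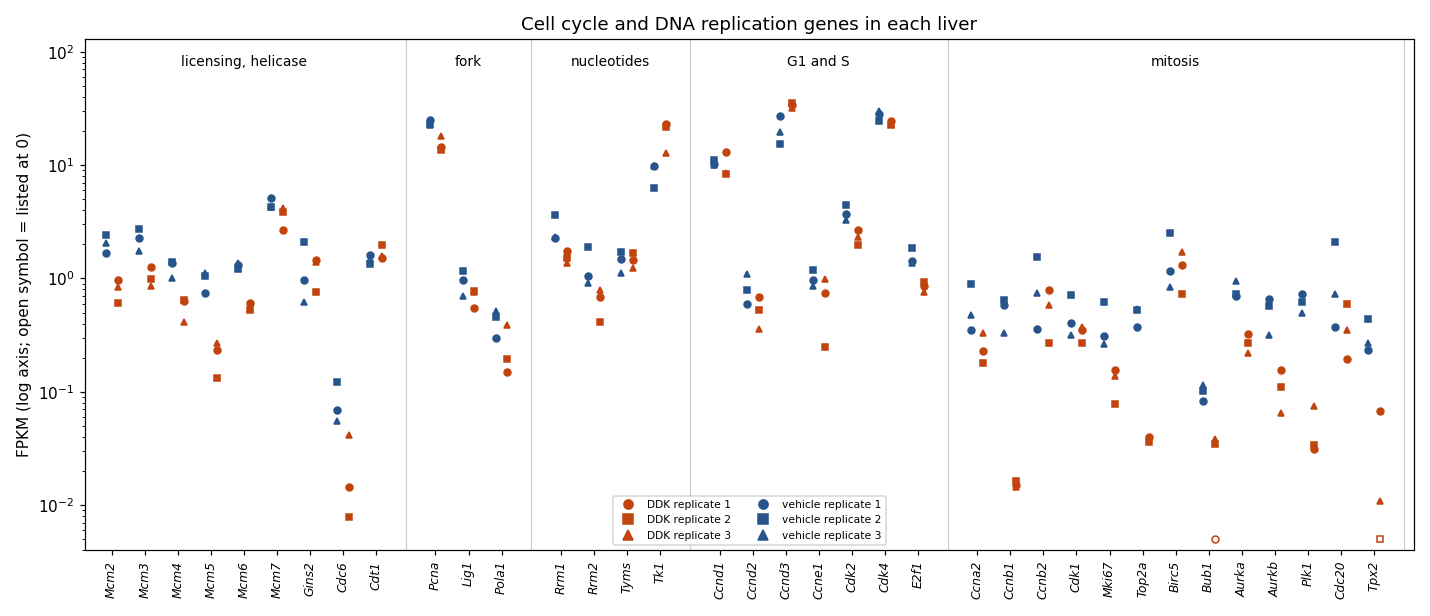
FPKM of the 36 genes in each liver on a log axis, grouped by role, with vehicle livers in blue and DDK livers in orange and an open symbol for a gene listed at 0. Mcm2 to Mcm6 and the mitosis genes Ccnb1, Top2a and Plk1 show orange points below all blue points, Tk1 and Ccnd3 show the reverse, and Birc5 and Ccnb2 overlap.

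Of the 6 helicase ring genes, 5 fell together, and the sixth stood closer to vehicle. Mcm2 had FPKM values of 0.959, 0.603 and 0.834 in DDK replicates 1 to 3 and of 1.69, 2.42 and 2.06 in vehicle replicates 1 to 3 (log2 fold change -0.76 ± 0.14 SE, adjusted p = 0.00389). Mcm3 stood at 1.26, 0.992 and 0.861 against 2.29, 2.75 and 1.75 (-0.67 ± 0.15, adjusted p = 0.00883). In both genes each DDK liver lay below each vehicle liver. Mcm4 stood at 0.63, 0.64 and 0.415 against 1.36, 1.40 and 1.0 (-0.53 ± 0.13, adjusted p = 0.0120). Mcm5 stood at 0.234, 0.132 and 0.271 against 0.738, 1.05 and 1.12 (-0.70 ± 0.12, adjusted p = 0.00319). Mcm6 stood at 0.604, 0.526 and 0.537 against 1.31, 1.21 and 1.36 (-0.56 ± 0.11, adjusted p = 0.00543), the narrowest spread of the 5 in vehicle, with an SD of 0.0748. These fold changes understate low genes, and by voom Mcm5 had the largest of the 5, at -2.18 ± 0.48, while the other 4 lay between -1.36 and -1.12.

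The calls of Mcm2 and Mcm6 by limma passed under quantile normalization and median-ratio scaling, and without each library in turn. That of Mcm5 passed both scalings and without each DDK library, and without a vehicle library Mcm5 no longer met the FPKM minimum and was not tested by limma. Under voom the calls of all 3 passed without each of the 6 libraries. Those of Mcm3 and Mcm4 ended after quantile normalization (adjusted p = 0.0799 and 0.0928), and under voom they ended after median-ratio scaling (0.0711 and 0.085). The voom call of Mcm3 also ended without DDK replicate 2 (0.0695) or 3 (0.0621). That of Mcm4 ended without DDK replicate 1 (0.0568), 2 (0.0644) or 3 (0.0797) or vehicle replicate 2 (0.0579). Mcm7, the most abundant of the ring genes, stood at 2.7, 3.85 and 4.19 in DDK and 5.11, 4.27 and 4.26 in vehicle, so that DDK replicate 3 lay just under the vehicle livers (-0.29 ± 0.17, adjusted p = 0.186). Its log2 fold change was 0.02 after quantile normalization. Mcm7 shares 321 bp of exon with Ap4m1 and 64 bp with Cops6 on the other strand in GENCODE M21, and Cops6 stood at 113 to 130 FPKM. The library kit does not mark strand, so reads within the shared stretches cannot be told apart. The length recovered from the Mcm7 FPKM was 2880 bp, and the part of such reads in the Mcm7 value was not tested.

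None of the 3 other licensing genes was called. Cdt1, which brings the ring to origins, stood at 1.52, 1.97 and 1.57 in DDK against 1.62, 1.35 and 1.49 in vehicle, and the groups overlapped (log2 fold change 0.11 ± 0.13, adjusted p = 0.521). Cdc6 was near the floor, with 2, 1 and 6 fragments in DDK and 12, 20 and 9 in vehicle. Its rate was 3.74-fold higher in vehicle (95% exact interval 1.79 to 8.75 from counting alone), but voom did not call it (adjusted p = 0.155). Gins2, of the GINS complex that activates the helicase, had 1.44, 0.761 and 1.40 FPKM in DDK and 0.961, 2.11 and 0.624 in vehicle, a vehicle range wider than the DDK range (0.02 ± 0.23, adjusted p = 0.953). In GENCODE M21 its exons, 4097 bp together, share 2758 bp with Gse1 on the other strand, at 1.1 to 1.42 FPKM. The length recovered from the Gins2 FPKM was only 1038 bp, so not all of that overlap lies in the counted gene. How much of it does is not known.

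At the fork, Pcna, the sliding clamp of the DNA polymerases, was the most abundant replication gene in vehicle livers. It stood at 14.3, 13.5 and 18.2 FPKM in DDK and at 24.9, 22.9 and 22.5 in vehicle, with no overlap (log2 fold change -0.59 ± 0.14, adjusted p = 0.0102). The call ended after median-ratio scaling (-0.31, adjusted p = 0.134), after quantile normalization (0.0556) and without DDK replicate 2 (0.0527). Lig1, which seals Okazaki fragments, stood at 0.552, 0.772 and 0.76 against 0.977, 1.17 and 0.701, and vehicle replicate 3 fell within the DDK range (-0.20 ± 0.13, adjusted p = 0.255). Pola1, the catalytic subunit of the priming polymerase, lay below the minimum of the test in DDK, at 0.15 to 0.385 against 0.298 to 0.512 in vehicle, and voom did not call it (adjusted p = 0.173). Pcna has 2 named pseudogenes in GENCODE M21, and how the authors divided fragments among copies is not stated.

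The nucleotide supply genes split. Rrm1, the large subunit of ribonucleotide reductase, stood at 1.76, 1.5 and 1.37 in DDK and at 2.27, 3.65 and 2.34 in vehicle (log2 fold change -0.55 ± 0.17, adjusted p = 0.0277). Its call ended after median-ratio scaling (adjusted p = 0.109), quantile normalization (0.245) and with no filter (0.0765), and without DDK replicate 1 (0.0501), 2 (0.0883) or 3 (0.0777) or vehicle replicate 2 (0.102). By voom the Rrm1 call ended after median-ratio scaling (0.153) and without each of the same libraries. Rrm2, the small subunit, whose level in dividing cells rises in S phase, had 0.414 to 0.789 FPKM in DDK and 0.905 to 1.88 in vehicle and just missed the threshold (-0.47 ± 0.17, adjusted p = 0.0555). Tyms, thymidylate synthase, overlapped fully, at 1.24 to 1.69 against 1.12 to 1.71 (0.02 ± 0.14, adjusted p = 0.935).

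Tk1, the cytosolic thymidine kinase of the salvage route, was the only one of the 16 replication genes called higher in DDK. It stood at 23.2, 21.6 and 12.7 in DDK and at 9.88, 6.32 and 9.82 in vehicle, with each DDK liver above each vehicle liver (log2 fold change 1.04 ± 0.24, adjusted p = 0.00841). The limma call passed in all 16 alternatives, quantile normalization and each left-out library included, and voom without DDK replicate 2 gave an adjusted p of 0.0528. Tk1 (chromosome 11, 117815526 to 117826092 on GRCm38, minus strand) shares 83 bp of exon with Afmid, an enzyme gene of tryptophan breakdown that starts on the other strand. Afmid stood at 28.3, 33.5 and 20.6 FPKM in DDK and at 13.6, 13.9 and 20.4 in vehicle, also without overlap. Without strand, reads within the shared 83 bp cannot be told apart, and the length recovered from the Tk1 FPKM was 1754 bp. The part of Afmid reads in the Tk1 value was not tested.

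**Figure D2:**
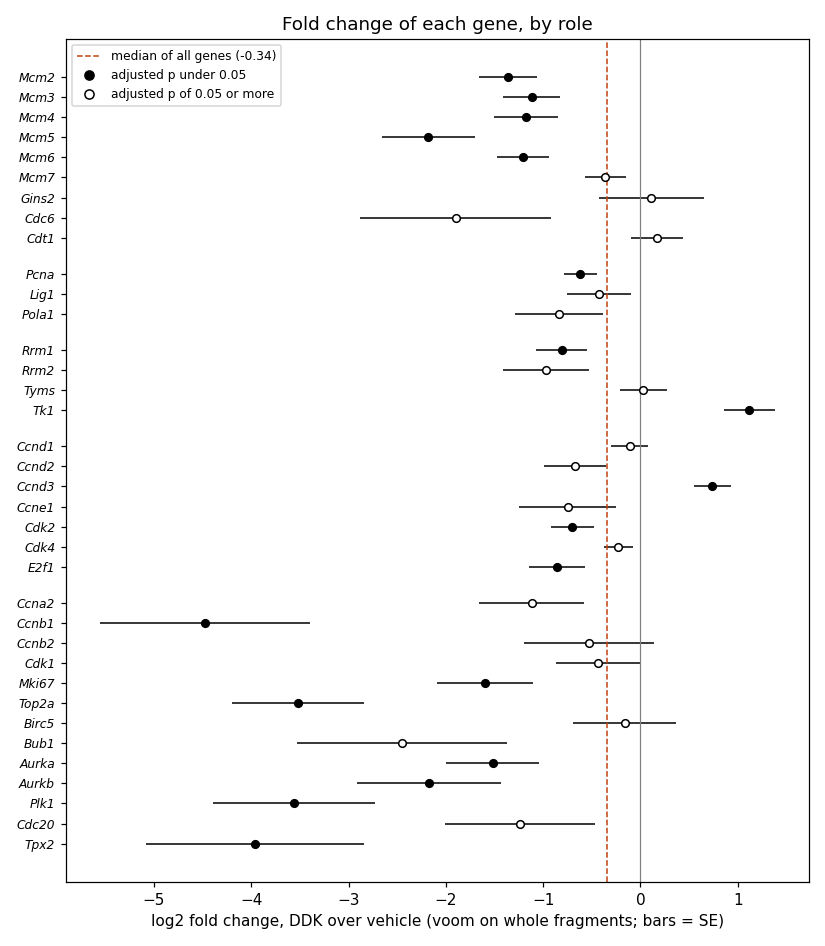
Log2 fold change of each of the 36 genes, DDK over vehicle, by limma's voom on whole fragments, with standard errors as bars, filled points for an adjusted p under 0.05 and a dashed line at the median of all genes (-0.34). The points of Ccnb1 (-4.48), Tpx2 (-3.96), Plk1 (-3.56) and Top2a (-3.52) lie farthest to the left, and those of Tk1 (1.12) and Ccnd3 (0.74) lie to the right.

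Among the genes of G1 and S control, the 3 D cyclins differed. Cyclin D binds CDK4 or CDK6 and opens the way to S phase. Ccnd3, the most abundant of the 36 genes per length in DDK livers, rose, from 26.9, 15.5 and 19.6 FPKM in vehicle to 34.1, 35.0 and 31.7 in DDK (log2 fold change 0.71 ± 0.18, adjusted p = 0.0139). Vehicle replicate 1 lay nearest to the DDK livers. The call ended without DDK replicate 2 (adjusted p = 0.0551) or vehicle replicate 3 (0.0519). By voom it ended without DDK replicate 1 (0.0582) or 2 (0.0685). Ccnd1, the D cyclin best known in regenerating hepatocytes, stood at 13.1, 8.34 and 8.56 in DDK and at 10.3, 11.2 and 10.1 in vehicle, so DDK livers lay on both sides of the vehicle range (-0.09 ± 0.17, adjusted p = 0.682). After median-ratio scaling its log2 fold change was 0.17 (adjusted p = 0.452). Ccnd2 stood at 0.357 to 0.679 against 0.595 to 1.10 (-0.26 ± 0.14, adjusted p = 0.160). On the other strand, Ccnd1 shares 1100 bp of exon with LTO1 (2.67 to 4.32 FPKM) and Ccnd3 shares 361 bp with Bysl (3.35 to 4.55 FPKM). Ccnd3 also has a named pseudogene in GENCODE M21. The part of such reads in the Ccnd1 and Ccnd3 values was not tested.

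Cdk4, the partner of the D cyclins, stood at 24.4, 22.7 and 22.9 in DDK and at 28.3, 24.3 and 30 in vehicle (log2 fold change -0.22 ± 0.13, adjusted p = 0.180). It shares 641 bp of exon with Tspan31 on the other strand, which stood at 154 to 193 FPKM, more than 5 times the Cdk4 level in every liver, and the part of such reads in the Cdk4 value was not tested. Cdk2, which drives S phase with cyclins E and A, stood at 2.68, 1.98 and 2.33 in DDK and at 3.69, 4.42 and 3.30 in vehicle and was lower (-0.53 ± 0.15, adjusted p = 0.0219). E2f1, an activating E2F, stood at 0.853, 0.935 and 0.758 against 1.42, 1.84 and 1.38 and was lower (-0.46 ± 0.13, adjusted p = 0.0199). In both genes the groups did not overlap. Both calls ended after median-ratio scaling (adjusted p = 0.119 for Cdk2 and 0.085 for E2f1) and quantile normalization (0.248 and 0.199). That of Cdk2 ended with no filter (0.0536) and without DDK replicate 2 (0.0978) or 3 (0.0504) or vehicle replicate 2 (0.0839). That of E2f1 ended without DDK replicate 1 (0.0597), 2 (0.053) or 3 (0.0589) or vehicle replicate 2 (0.0821). By voom both calls ended after median-ratio scaling (0.222 for Cdk2 and 0.175 for E2f1). Both voom calls also ended without each DDK library or vehicle replicate 2, and that of E2f1 without vehicle replicate 3 (0.0634). Ccne1, cyclin E1, ranged from 0.25 to 0.981 in DDK and from 0.858 to 1.18 in vehicle (-0.29 ± 0.17, adjusted p = 0.194).

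The mitosis genes were the lowest group, 11 of the 13 having a mean FPKM under 1 in both groups, and here the fragments themselves carry the result. Ccnb1, cyclin B1, which activates CDK1 at entry into mitosis, had 1 fragment in each DDK liver and 49, 51 and 26 in vehicle livers. That is a rate 34.5-fold higher in vehicle (95% exact interval 11.5 to 169 from counting alone), and voom gave a log2 fold change of -4.48 ± 1.08 (adjusted p = 0.0110). Plk1, a kinase of spindle assembly and mitotic entry, had 2, 2 and 5 fragments in DDK and 58, 47 and 37 in vehicle (-3.56 ± 0.83, adjusted p = 0.00955). In both genes every DDK liver was below every vehicle liver by a wide gap.

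Top2a, the topoisomerase that untangles sister chromatids, had 6, 5 and 6 fragments in DDK and 70, 94 and 96 in vehicle (voom log2 fold change -3.52 ± 0.68, adjusted p = 0.00411). Tpx2, a spindle factor that activates Aurora A, had 6, 0 and 1 fragments in DDK and 26, 46 and 28 in vehicle (-3.96 ± 1.12, adjusted p = 0.0225). These 4 genes were the members at least 8-fold lower in mean FPKM, a drop seen in 1.64% of all genes with at least 30 fragments. They had 3 (Ccnb1) to 17 (Top2a) fragments over the DDK livers together, so they met the fragment minimum through the vehicle livers. With so few DDK fragments a gene could enter only where vehicle was high, so this share gives no support for the drop. The calls of Plk1 and Top2a passed after median-ratio scaling and without any one library. That of Ccnb1 ended without DDK replicate 2 (adjusted p = 0.0534), and that of Tpx2 without DDK replicate 2 (0.0898) or 3 (0.0757). Ccnb1 has a named pseudogene in GENCODE M21, as has Ccnb2.

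The other genes called by voom lost less. Aurkb, the kinase of the chromosomal passenger complex, had 9, 6 and 4 fragments in DDK and 48, 40 and 22 in vehicle (log2 fold change -2.17 ± 0.74, adjusted p = 0.0451). Mki67, the proliferation antigen Ki-67, had 45, 21 and 42 in DDK and 113, 212 and 91 in vehicle (-1.60 ± 0.49, adjusted p = 0.0288). Aurka, the spindle pole kinase and the only mitosis gene called by limma on FPKM, had 21, 16 and 15 in DDK and 57, 56 and 72 in vehicle (voom -1.52 ± 0.48, adjusted p = 0.0347; limma -0.49 ± 0.11, adjusted p = 0.00875). None of the 3 overlapped between groups. Under voom each of these calls ended after median-ratio scaling, at an adjusted p of 0.0987 for Aurkb, 0.069 for Mki67 and 0.0775 for Aurka. Each also ended without any 1 of DDK replicates 1, 2 and 3 (0.094, 0.125 and 0.135 for Aurkb, 0.0681, 0.116 and 0.0715 for Mki67, 0.0824, 0.108 and 0.102 for Aurka) or without vehicle replicate 2 (0.0972, 0.0656 and 0.0635). Without vehicle replicate 1 the value of Aurkb was 0.0629, and without vehicle replicate 3 that of Aurka was 0.0893. By limma on FPKM the Aurka call passed after median-ratio scaling (0.018) and without each DDK library (0.0241 to 0.038), and without a vehicle library Aurka no longer met the FPKM minimum.

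The other 6 mitosis genes were not called by voom, and in 4 of them the groups overlapped. Birc5, survivin, the most abundant of the 13, had 1.32, 0.736 and 1.70 FPKM in DDK and 1.17, 2.50 and 0.848 in vehicle (voom log2 fold change -0.16 ± 0.53, adjusted p = 0.839). Ccnb2, cyclin B2, had 35, 11 and 27 fragments in DDK and 20, 82 and 39 in vehicle (-0.53 ± 0.67, adjusted p = 0.563). In FPKM, vehicle replicates 1 and 3 lay inside the DDK range in both, for Ccnb2 at 0.359 and 0.745 within 0.269 to 0.79. Cdk1, the kinase that cyclin B activates, had 44, 31 and 49 in DDK and 64, 105 and 47 in vehicle (-0.44 ± 0.43, adjusted p = 0.445). Cdc20, which targets cyclin B for destruction, had 0.195, 0.591 and 0.352 FPKM in DDK and 0.373, 2.08 and 0.726 in vehicle (-1.24 ± 0.77, adjusted p = 0.237). It passed voom without vehicle replicate 1 (adjusted p = 0.0486). Ccna2, cyclin A2, had 22, 16 and 34 fragments in DDK and 43, 103 and 55 in vehicle (-1.12 ± 0.54, adjusted p = 0.133), without overlap, and passed without vehicle replicate 1 (0.0452). Bub1, a spindle checkpoint kinase, had 0, 4 and 5 against 13, 15 and 17 (-2.45 ± 1.08, adjusted p = 0.104), also without overlap, and passed limma on FPKM with no filter (-0.1, adjusted p = 0.0313). On the other strand, Ccna2 shares 510 bp of exon with Exosc9 (4.82 to 9.43 FPKM) and Cdc20 shares 53 bp with Elovl1 (5.27 to 10.7 FPKM). The part of such reads in the Ccna2 and Cdc20 values was not tested.

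Cyclins B1 and B2 thus had quite different values in the same livers. The rate ratio, vehicle over DDK, was 34.5 (95% exact interval 11.5 to 169) for Ccnb1 and 1.59 (1.19 to 2.13) for Ccnb2, intervals that cover counting error only, and the difference between the genes was not tested across livers. Vehicle replicate 2 held the highest value of the 6 livers for 8 of the 13 mitosis genes and 9 of the 16 replication genes. For Cdc20 it stood at 2.08 beside 0.373 and 0.726 in the other vehicle livers, and for Ccnb2 at 1.56 beside 0.359 and 0.745. For Plk1, Top2a and Ccnb1 the 3 vehicle livers lay within 2-fold of each other.

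Summed over the 13 mitosis genes, the FPKM was 3.67, 2.62 and 3.94 in DDK replicates 1 to 3 and 6.32, 12 and 6.39 in vehicle replicates 1 to 3. The group means were 3.41 ± 0.698 and 8.23 ± 3.25 (SD, n = 3 each), a log2 ratio of -1.27, and the groups did not overlap. Without vehicle replicate 2 the log2 ratio was -0.9. The sum over the 16 replication genes was 51.5, 49.1 and 45.5 in DDK and 56.0, 54.8 and 51.7 in vehicle, a log2 ratio of -0.15 that became 0.14 after median-ratio scaling. That sum rested on Pcna and Tk1, which made up 31.5% and 39.3% of it in DDK and 43.3% and 16.0% in vehicle and moved in opposite directions. Without both, the other 14 genes summed to 14, 14.1 and 14.7 in DDK and 21.2, 25.6 and 19.3 in vehicle, a log2 ratio of -0.63, a sum chosen after seeing the data. Mcm2 to Mcm7 summed to 6.39, 6.75 and 7.11 against 12.5, 13.1 and 11.5, a log2 ratio of -0.88. The 7 genes of G1 and S control summed to 76.6, 69.8 and 67.6 in DDK and 72.2, 59.2 and 66.3 in vehicle, where the groups overlapped. The sums are descriptions and carry no test.

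**Figure D3:**
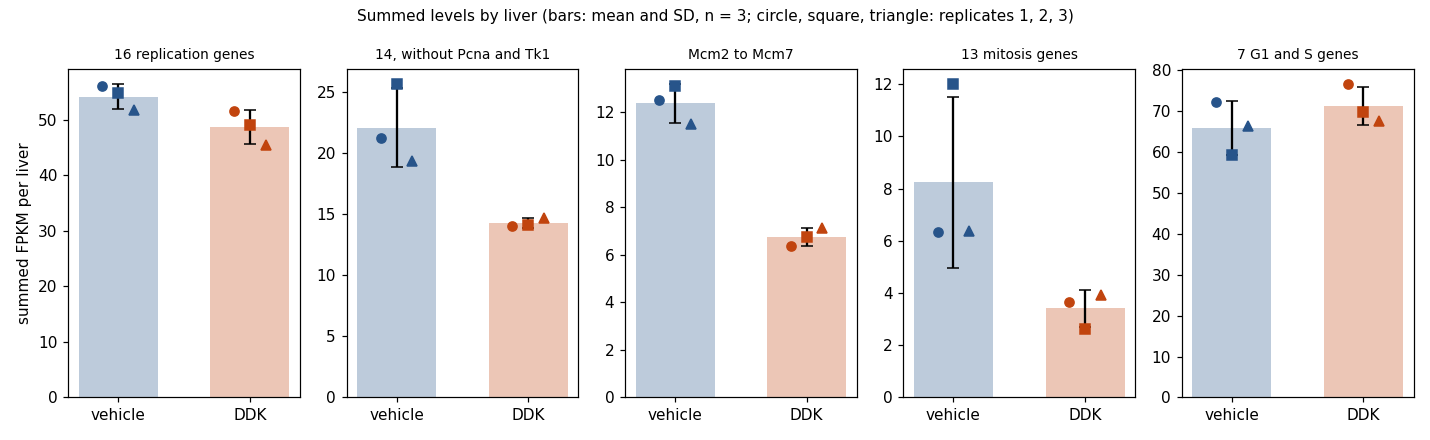
Summed FPKM per liver for 5 groups of genes, with bars for the mean and SD of 3 livers and symbols for replicates 1, 2 and 3. The sums of Mcm2 to Mcm7 (6.39 to 7.11 in DDK, 11.5 to 13.1 in vehicle) and of the mitosis genes (2.62 to 3.94 against 6.32 to 12) separate the groups, and the sum of the 7 G1 and S genes does not.

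Set side by side, voom put 7 of 13 mitosis genes and 7 of 16 replication genes lower, and 0 and 1 higher, beside 24.2% of all genes lower and 7.38% higher. The median log2 fold change was -1.6 for the mitosis genes and -0.82 for the replication genes as deposited, and -1.28 and -0.52 after median-ratio scaling, where 4 and 3 genes were lower. After that scaling the shares lower were 30.8% and 18.8%, beside 12% of all genes. Within the replication genes the 5 helicase genes made up most of the 7, with Pcna and Rrm1. Neither group was tested against the other.

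Further genes of the cycle, 146 in 5 lists, were set beside the same shares of all genes. Of 15 other licensing and firing genes with at least 30 fragments, voom put 1 lower and 2 higher, and of 31 polymerase and fork genes 2 lower and 2 higher (6.67% and 6.45% lower, against 24.2% of all genes). After median-ratio scaling these became 0 lower and 4 higher, and 0 lower and 5 higher, where 12% of all genes were lower and 14.2% higher. The difference between these lists and the 16 replication genes was not tested. By limma on FPKM the genes past the threshold in the first list were Gmnn (0.45 ± 0.15, adjusted p = 0.0333), which encodes the CDT1 inhibitor geminin, Gins1 (0.46 ± 0.16, 0.0423) and Mcmbp, an MCM-binding protein (-0.44 ± 0.14, 0.0368). Each of those 3 calls ended under several alternatives, left-out libraries of both groups among them. After median-ratio scaling and quantile normalization Gmnn (adjusted p = 0.0086 and 0.0093) and Gins1 (0.0111 and 0.00997) kept the call. Mcmbp lost it under both (0.278 and 0.378). In the second list the genes past the threshold were Pold4, a small subunit of polymerase delta (0.93 ± 0.13, adjusted p = 0.00151), Rpa1, which coats single-stranded DNA (-0.62 ± 0.15, 0.0105, and 0.0638 after median-ratio scaling), and Rnaseh2c (0.64 ± 0.22, 0.0451). Pold4 stood at 42.2, 39.6 and 32.5 FPKM in DDK and at 19.3, 20.3 and 18.7 in vehicle. The Rnaseh2c call ended without any one library except vehicle replicate 1.

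Of 8 other nucleotide supply genes tested by limma on FPKM 3 were lower and 0 higher as deposited and after median-ratio scaling, 37.5% lower beside 30.3% and 16.2% of all genes. Past the threshold as deposited were Dck, deoxycytidine kinase (limma -0.92 ± 0.16, adjusted p = 0.00319), Cmpk1 (-0.88 ± 0.17, 0.00382) and Samhd1, which breaks down deoxynucleotides (-0.76 ± 0.17, 0.0074, and 0.0558 after quantile normalization). Of 23 other G1 and S regulators tested by limma 7 were lower and 1 higher, and 5 and 2 after median-ratio scaling. The share lower, 30.4% as deposited, was that of all genes (30.3%), and 21.7% stood beside 16.2% after scaling, so the genes named next are single calls and no result about the list. E2f6, a repressor E2F, stood at 0.86, 0.501 and 1.16 FPKM in DDK and at 2.03, 3.17 and 3.75 in vehicle (-1.11 ± 0.20, adjusted p = 0.00327). Cdkn1a, the cyclin-dependent kinase inhibitor p21, stood at 1.11, 1.16 and 3.88 against 7.5, 6.25 and 8.43 (-1.57 ± 0.29, adjusted p = 0.00375), with DDK replicate 3 well above DDK replicates 1 and 2. Tfdp1, the E2F partner DP1 (-0.85 ± 0.17, 0.0046), and E2f8 (-0.86 ± 0.21, 0.0114) were lower too, E2f8 at 0.0523 with no filter.

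Of 55 other mitosis genes with at least 30 fragments, voom put 13 lower and 0 higher, and 7 and 1 after median-ratio scaling. These shares of lower genes, 23.6% and 12.7%, were near those of all genes (24.2% and 12%). Their median log2 fold change was -1.2 beside -0.34 for all genes as deposited, and -0.9 beside -0.03 after median-ratio scaling. In mean FPKM, 5 of the 55 were at least 8-fold lower, beside 1.64% of all genes with at least 30 fragments. Those 5 had at most 11 fragments in any DDK liver and likewise met the fragment minimum through the vehicle livers. Of those 5, voom called Nuf2, of the NDC80 kinetochore complex, with 4, 0 and 0 fragments in DDK and 14, 33 and 25 in vehicle (adjusted p = 0.0287). It also called Prc1, which bundles the central spindle, with 1, 11 and 0 against 27, 52 and 52 (0.0235). Ndc80, Hmmr and Melk were not called (adjusted p = 0.0651, 0.0989 and 0.298), and Melk had 0 fragments in vehicle replicate 1. Among the genes abundant enough for limma on FPKM, Nek2, a centrosome kinase, stood at 0.745, 0.578 and 0.762 against 1.61, 1.72 and 1.59 (-0.64 ± 0.12, adjusted p = 0.00381). Bub3, of the spindle checkpoint, fell by 0.70 ± 0.14 on the log2 scale, from 13.4, 14.9 and 11.8 to 7.81, 7.42 and 8.12 (adjusted p = 0.00426). Stmn1 (-0.62 ± 0.14, 0.00885) and Ccnf, cyclin F (-0.60 ± 0.16, 0.0172), were lower, and both lost the call after median-ratio scaling (0.0824 and 0.0874). That of Ccnf also ended with no filter (0.0508) and without DDK replicate 1 (0.0621) or 2 (0.0823) or vehicle replicate 3 (0.0529).

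**Figure D4:**
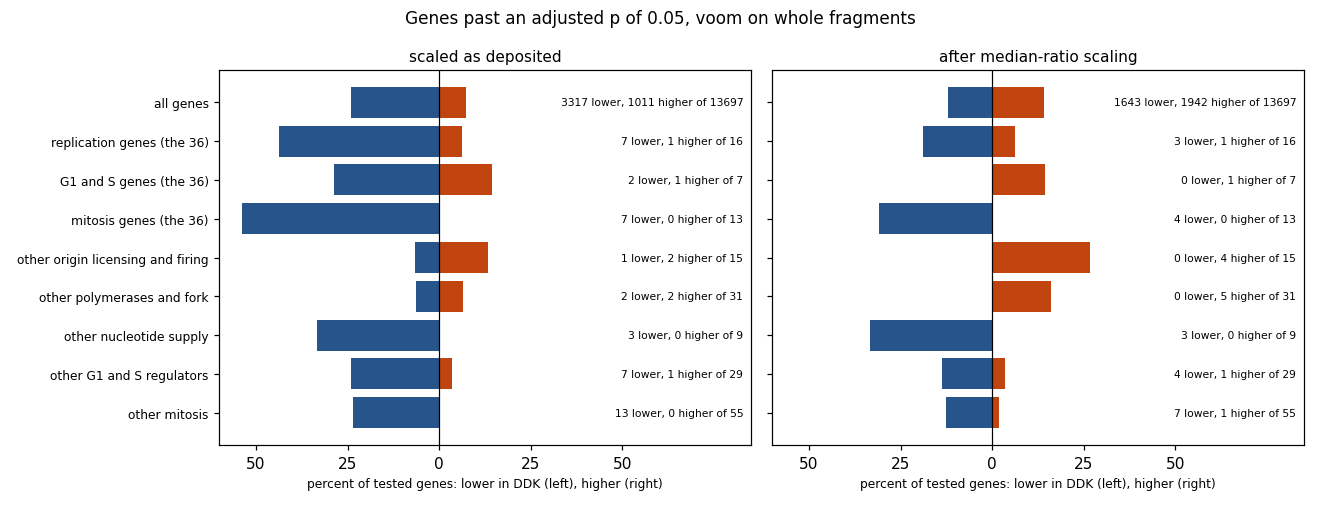
Percent of tested genes past an adjusted p of 0.05 by voom on whole fragments, lower in DDK to the left and higher to the right, for all genes, for 3 role groups of the 36 genes and for 5 further lists, as deposited and after median-ratio scaling. The mitosis genes (53.8%) and replication genes (43.8%) of the 36 lie to the left of all genes (24.2%) as deposited, while the other licensing (6.67%) and polymerase (6.45%) lists lie nearer to 0.

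Markers of several cell types also differed between the groups. Hepatocyte markers were abundant in every liver and summed to 63300 to 66300 FPKM in DDK and 39000 to 49800 in vehicle, with 3 of 10 higher and 2 lower. The 15 macrophage and Kupffer cell markers summed to 193 to 485 in DDK and 666 to 1070 in vehicle, and 11 of 15 were lower. Of 11 stellate cell and fibroblast markers 8 were lower, with sums of 62.7 to 86.5 against 140 to 182. Of 8 endothelial markers 4 were lower, with sums of 43.7 to 56.0 against 69.1 to 101. Neutrophil markers summed to 2.54 to 8.92 against 10.8 to 14.6, with 1 of 3 tested lower. In the same limma fit 30.3% of all genes were lower and 10.2% higher. After median-ratio scaling 10 macrophage, 7 stellate, 3 endothelial and 1 neutrophil markers were lower, beside 16.2% of all genes. Hepatocyte markers then had 0 lower and 3 higher, beside 18% of all genes higher. T and NK cell sums (7.18 to 16.3 against 5.05 to 12.5), B and plasma cell sums (2.58 to 4.99 against 3.8 to 4.87), cholangiocyte sums (36.3 to 62.1 against 46.4 to 68.7) and sums of red blood cell genes (374 to 731 against 396 to 536) overlapped. By limma 3 of 7 red blood cell genes tested were higher and 1 lower, and 1 of 5 cholangiocyte markers was higher. None of the 5 T and NK cell and 3 B and plasma cell markers tested was called. No marker present in the table was at 0 in every liver, and Trac was not among its symbols. Vehicle replicate 2, with the highest mitosis sum, had the lowest macrophage (666), endothelial (69.1) and neutrophil (10.8) sums of the vehicle livers. It had the highest red blood cell sum of them (536). In the remaining marker sums, the stellate sum (180) included, it lay between the other vehicle livers. The part of these cell types in the cell cycle values was not tested.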

How the data were processed

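RNA-seq was run on livers of 3 DDK and 3 vehicle mice, from 1.3 µg of total RNA each with a kit that does not mark strand, per the labels' protocols. The authors deposited FPKM per gene symbol for each library. The build was GRCm38 (mm10), per the submitters' processing notes, and the aligner, counter and annotation are not given in the sources used here. Whole fragments, gene lengths and library totals were recovered from the FPKM (tolerance 0.01 of a fragment), and 99.6% of each total lay on listed symbols. The test of DDK against vehicle was limma 3.58.1 (R 4.3.3, variance trend) on log2(FPKM + 1) for genes at an FPKM of 0.5 or more in at least 3 libraries, with Benjamini-Hochberg adjustment over all genes and a threshold of 0.05. Limma's voom on whole fragments was fitted on genes with at least 30 fragments in all. Both were tested on simulated data.

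Alternatives were pseudocounts of 0.1 and 0.5, no filter, a minimum FPKM of 1, quantile normalization, median-ratio scaling, TPM, the replicate number as a block, and each library left out. Same-numbered libraries did not deviate together (correlations of 0.14, -0.15 and 0.06). Values in every liver are given for genes past the threshold and the 2 most abundant of each role, and for others chosen after their values were seen. Of each further list, up to 4 genes past the threshold with the smallest p are named. The members and lists were chosen with earlier results of these data known. Positions and shared exons are from GENCODE M21, promoters from RefSeq. Of the other genes listed, 146 were in the table and H2afz was not among its symbols.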

Additional observations from a re-analysis of the deposited data

How the results depend on the processing

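Of the 25 genes tested by limma, 10 were lower as deposited, 6 with median-ratio scaling and 4 with quantile normalization. Those 4 were 16% of the 25, beside 16.4% of all genes. Voom with a fragment minimum, over all 36, put 16 lower, and 7 with median-ratio scaling. With each library left out, 5 to 9 were lower and 1 to 2 higher by limma, and 5 to 18 lower and 0 to 2 higher by voom. Over all genes, 3234 were lower and 1093 higher as deposited, 1727 and 1924 with median-ratio scaling, 1756 and 1886 with quantile normalization, and 4929 and 631 under TPM, and leaving out libraries gave 1711 to 4127 lower and 599 to 1351 higher. The replicate block, for numbers that do not pair the livers, gave 3082 lower and 1052 higher genes, 11 and 2 of the 36. The log2 ratio of the replication sum was -0.15 as deposited, 0.14 after median-ratio scaling, -0.39 under TPM, 0.12 without Pcna, its most abundant gene, and -0.63 without Pcna and Tk1, and -0.19 to -0.11 with a library left out. That of the mitosis sum moved by less than the spread between livers in each alternative, from -1.64 without Birc5 to -0.9 without vehicle replicate 2.

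Signs turned for 7 genes that were not called as deposited, of which Mcm7 and Cdk4 were called under TPM. By limma these were Mcm7 (0.02, quantile normalization), Gins2 (-0.12 under TPM, -0.18 to 0.29 without single libraries), Cdt1 (-0.04 under TPM), Tyms (-0.15 under TPM, -0.08 to 0.1 without single libraries), Ccnd1 (0.17 under either scaling, -0.29 to 0.01 without single libraries), Cdk4 (0.06, median-ratio scaling) and Birc5 (0.04, median-ratio scaling, 0.12, quantile normalization, -0.31 to 0.15 without single libraries). By voom, signs turned for Birc5 (0.17 with median-ratio scaling, -0.48 to 0.27 without single libraries), Ccnd1 (0.21 with median-ratio scaling, 0.01 without DDK replicate 2), Cdk4 (0.08 with median-ratio scaling), Gins2 (as low as -0.27, without vehicle replicate 3) and Tyms (as low as -0.14, without vehicle replicate 3). Cdc20 passed limma with the replicate block (adjusted p = 0.0387), and Mcm7, Rrm2 and Cdk4 passed under TPM (0.0466, 0.0245 and 0.0206). Cdc6 and Bub1 had 9 fragments each over the DDK livers, and with no filter Bub1 passed limma (0.0313) and Cdc6 did not (0.0884). The cause of these shifts was not tested.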
